A study of Mus musculus with 2 samples.

Results

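Igk is the immunoglobulin kappa light-chain locus of the mouse, on chromosome 6. H3K4me1, histone H3 monomethylated at lysine 4, was mapped there in pre-B cells by chromatin immunoprecipitation and sequencing (ChIP-seq). The members described here are all called H3K4me1 regions that overlap positions 67400001 to 70900000 of the mouse build mm9 by at least 1 base. They numbered 226 of the 48130 regions in the list. The window of 3.5 Mb was set by position and not by any measured value. It was read in 4 segments, and a region belongs to the segment that holds its midpoint. The J-C-enhancer end ran from 70600001 to 70750000 and held 14 regions. The V part ran from 67500001 to 70600000 and held 203 regions. A lower flank of 100 kb before the V part held 1 region, and an upper flank of 150 kb after the J-C-enhancer end held 8.

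The study made 2 libraries from RAG1-/- pre-B cells of the B6 strain, 1 immunoprecipitated with an antibody to H3K4me1 and 1 input without antibody. The cells came from bone marrow of male and female mice aged 6 to 14 weeks. All mice lacked the recombinase gene and carried a rearranged IgM transgene, so both libraries share this genotype. How many mice went into each library is not given in the sources used here. With 1 library per group no spread between replicates could be measured and no test of a condition was possible, so every comparison below is between stretches of the genome within 1 library.

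Kappa chains are assembled by joining a V segment to a J segment, which is then spliced to the constant exon Igkc. In the mouse the V segments fill a long stretch on 1 side of a short cluster of J segments and Igkc, and they are joined by deletion or by inversion. Known enhancers lie in the intron between the J segments and Igkc and downstream of Igkc, and they act on transcription and rearrangement of the locus from the pre-B stage on. H3K4me1 marks enhancers and the flanks of active promoters. Without the Rag1 product no V segment can be joined, so the locus in these cells keeps its germline order.

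RefSeq's gene table for another build, GRCm38.p6, gave names and order only, since its coordinates do not apply to mm9. It listed 162 V segments, 102 as V segments and 60 as V segment pseudogenes, then 5 J segments (Igkj1 to Igkj5) and Igkc. In that order Igkv2-137 is the first V segment, and Igkv3-1, the last, lies before the J segments. After Igkc come the long non-coding RNA gene Gm30211, the pentose phosphate enzyme gene Rpia and Eif2ak3, which encodes a kinase of the unfolded protein response. No segment or gene is assigned to a region here, and the parts are the windows above. Their boundary is a position and not a gene border, so the last V segments may lie within the J-C-enhancer end.

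Depth was shared by all members. The H3K4me1 library held 50945360 tags, of which 15701950 lay in called regions of the genome, per the file header. A window of 500 bases needed at least 26 tags to be called, where 12.582 were expected from a uniform genome, and each kept region had to be 4-fold over input. Tag numbers of single regions were not used here, so regions are described by number, length and spacing. Intervals on shares are 95% Wilson intervals, those on ratios of region numbers are exact, and all cover counting error only and treat regions as independent.

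The J-C-enhancer end was dominated by 1 unbroken H3K4me1 region. It ran from 70673352 to 70696568 and was 23.2 kb long. By length it was region 69 of the 48130 in the genome and region 3 of the 2675 on chromosome 6. It held 47.8% of all region bases of this end. The intronic and 3' enhancers lie near 70.67 to 70.7 Mb according to the definition of the window, and regions covered 84.6% of the 30 kb from 70670001 to 70700000. Of 17047 other windows of 150 kb in the genome, 0.393% held a region at least as long.

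**Figure D1:**
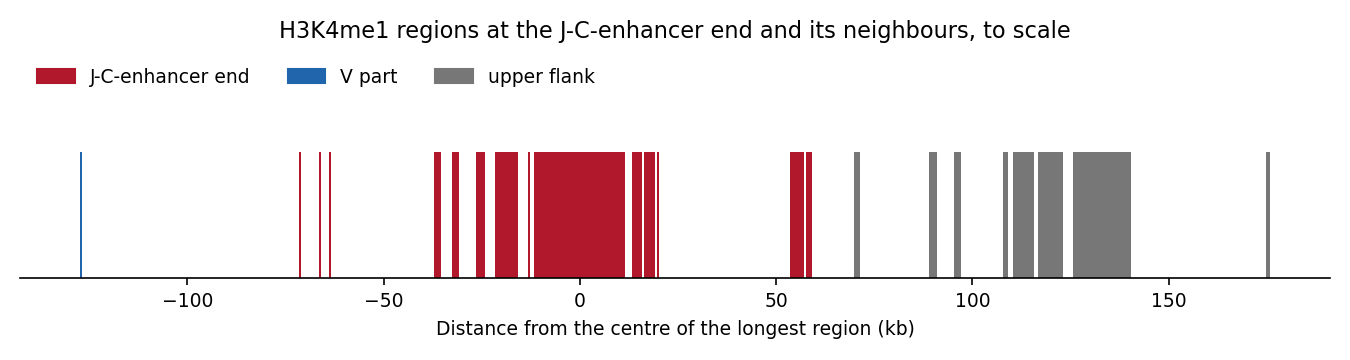
H3K4me1 regions at the J-C-enhancer end (red), the nearest region of the V part (blue) and the upper flank (grey), drawn to scale against the distance from the centre of the longest region in kb. The red block around 0 is the region of 23.2 kb, with shorter regions close on both sides.

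Shorter regions lay close on both sides of the long one. Directly before it were regions of 5.85 kb (70663240 to 70669087) and 501 bases (70671684 to 70672184). Further out on that side lay regions of 2.44 kb (70658465 to 70660902), 1.96 kb (70652273 to 70654235) and 1.88 kb (70647749 to 70649623). After the long region followed regions of 2.37 kb (70698353 to 70700723), 2.83 kb (70701287 to 70704115) and 501 bases (70704730 to 70705230). These 9 regions formed 1 island of 57.5 kb, from 70647749 to 70705230, in which no gap exceeded 12.5 kb and 72.3% of the bases were covered. The 5 from 70671684 to 70705230 were each less than 2.5 kb apart, and joined they spanned 33.5 kb.

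Marking outside this island was thinner. Before it, beyond a gap of 26.1 kb, lay 3 short regions of 627 bases (70613416 to 70614042), 680 bases (70618465 to 70619144) and 501 bases (70621185 to 70621685). After it came a gap of 33.3 kb and then regions of 3.59 kb (70738509 to 70742099) and 1.61 kb (70742601 to 70744211), which were 501 bases apart. The 13 regions other than the longest had a median length of 1875 bases, ranging from 501 to 5848, and covered 16.9% of the end.

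The V part carried many separate regions of modest length along its whole course. Its 203 regions amounted to 65.5 per Mb, against 17.2 per Mb on the rest of chromosome 6, a ratio of 3.82 (exact 95% interval 3.29 to 4.41). Regions covered 14.5% of the V part and 3.70% of the rest of chromosome 6. The ratio of densities against all autosomes outside the window was 3.36 (2.91 to 3.86). Of 814 other windows of 3.1 Mb, 0.491% (4 windows) held at least 203 regions, while 99.6% held at most 203. By covered bases, 1.84% of them reached the share of the V part. Because V segments are related copies, tags could map to more than 1 of them. How such tags were treated is not given in the sources used here, and its part in the count was not tested.

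**Figure D2:**
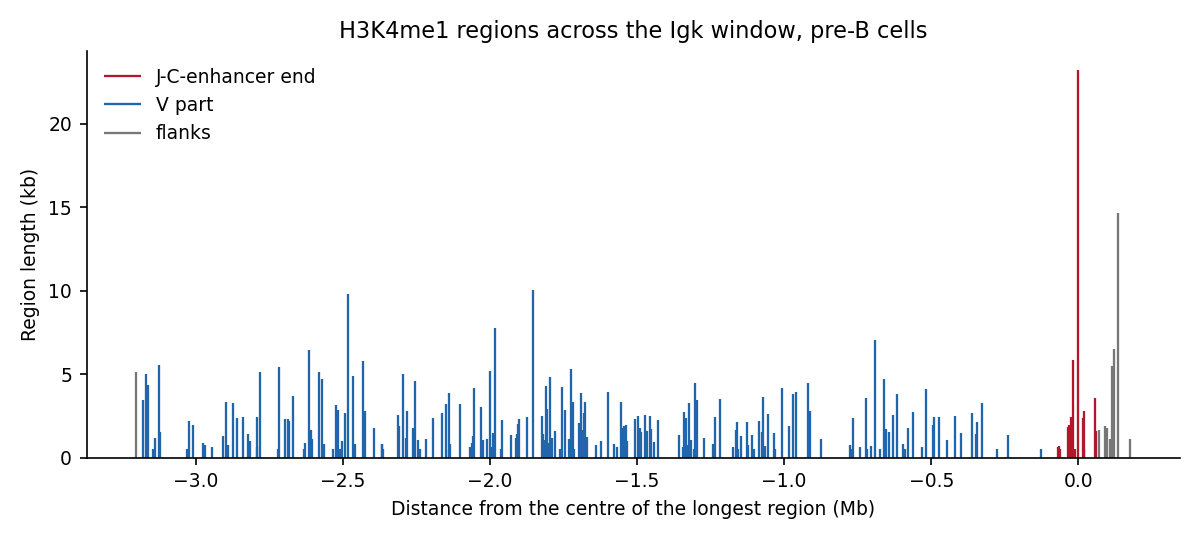
Length of each of the 226 H3K4me1 regions of the Igk window in kb (vertical lines from 0), against the distance of its midpoint from the centre of the longest region in Mb. The J-C-enhancer end (red) holds the region of 23.2 kb, the V part (blue) is filled with lines up to 10.1 kb, and the flanks are grey.

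Within the V part no region stood out as the long one did at the J-C-enhancer end. The longest region of the V part was 10.1 kb (68827474 to 68837533), so the longest of the J-C-enhancer end was 2.31 times as long. The longest of the V part held 2.23% of the region bases of the V part. This share and the 47.8% at the J-C-enhancer end have unlike bases, since the V part held 203 regions and the J-C-enhancer end 14. Regions of 9.79 kb (68198628 to 68208415), 7.78 kb (68698432 to 68706208), 7.08 kb (69988974 to 69996051) and 6.43 kb (68067835 to 68074263) followed. The other 5 of the 10 longest were between 5.23 and 5.78 kb. They lay at 68250663 to 68256438, 67556330 to 67561893, 67965337 to 67970764, 68958666 to 68963994 and 68683958 to 68689183. Of these 10, 9 lay in the 1.5 Mb farthest from the J-C-enhancer end. In successive steps of 500 kb that stretch held 27, 37 and 46 of the 203 regions, counted without regard to length. The next 3 steps held 37, 31 and 24. Whether long regions gathered there apart from the number of regions was not tested. The 10 longest together held 15.2% of the region bases of the V part. Its first region ran from 67503576 to 67507051 (3.48 kb) and its last from 70557595 to 70558095 (501 bases).

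Lengths of typical regions differed little between the J-C-enhancer end and the V part. The median was 1919 bases at the J-C-enhancer end (exact 95% interval of the median 501 to 3591) and 1806 bases in the V part (1530 to 2191), so these intervals overlap. On the rest of chromosome 6 the median was 1434 bases (1364 to 1494), below the interval of the V part. At the shortest length of the list, 501 bases, were 3 of 14 regions of the J-C-enhancer end and 22 of 203 of the V part (10.8%, Wilson 7.27 to 15.9%), beside 14.3% of all regions. Regions of at least 5000 bases numbered 2 at the J-C-enhancer end and 14 in the V part (6.90%, 4.15 to 11.2%), beside 8.92% of all regions. Regions of at least 10000 bases numbered 1 at the J-C-enhancer end and 1 in the V part (0.493%, 0.087 to 2.74%), beside 2.15% of all regions. The intervals for the V part include the share of all regions at each of these lengths. Between these extremes, longer than 501 and shorter than 5000 bases, were 167 of its 203 regions (82.3%, 76.4 to 86.9%), beside 76.8% of all regions.

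The 2 parts of the locus differed more in covered bases and spacing than in the number of regions. The J-C-enhancer end had 93.3 regions per Mb and the V part 65.5, a ratio of 1.43 with an exact 95% interval of 0.765 to 2.45, which includes 1. Joining regions under 2.5 kb apart turned this ratio to 0.871. Covered bases made up 32.4% of the J-C-enhancer end and 14.5% of the V part, a ratio of 2.22. The 16.9% given above for the 13 regions other than the longest is a share of the full 150 kb. It has another base than the 14.5%, which includes the longest region of the V part. Among other windows of 150 kb, 2.6% held at least 14 regions and 1.44% reached the covered share of the J-C-enhancer end. The median gap between neighbours was 2.34 kb at the J-C-enhancer end (0.614 to 4.42 kb) and 8.26 kb in the V part (6.89 to 10.4 kb), and these intervals do not overlap. Gaps under 2.5 kb were 7 of 13 at the J-C-enhancer end (53.8%, 29.1 to 76.8%) and 37 of 202 in the V part (18.3%, 13.6 to 24.2%).

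Gaps of middle size made up a larger share in the V part than on the rest of chromosome 6. These 2 sets differ in density, at 65.5 and 17.2 regions per Mb, and a higher density by itself leaves fewer long gaps. Spacing apart from density was not tested. Gaps of 2.5 to 12.5 kb made up 46.5% of the gaps in the V part (39.8 to 53.4%) and 29.4% on the rest of chromosome 6 (27.7 to 31.3%). Gaps of 50 kb or more made up 2.48% in the V part (5 of 202, 1.06 to 5.66%) and 16.8% on the rest of chromosome 6 (15.4 to 18.4%). The shortest gaps, under 2.5 kb, made up 18.3% in the V part (13.6 to 24.2%) and 25.0% on the rest of chromosome 6 (23.3 to 26.8%). These intervals overlap, but the share of the V part was below the interval of the rest of chromosome 6. The median gaps were 8.26 kb in the V part and 9.85 kb on the rest of chromosome 6. The upper quartiles were 16.8 kb in the V part and 31.8 kb on the rest of chromosome 6.

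**Figure D3:**
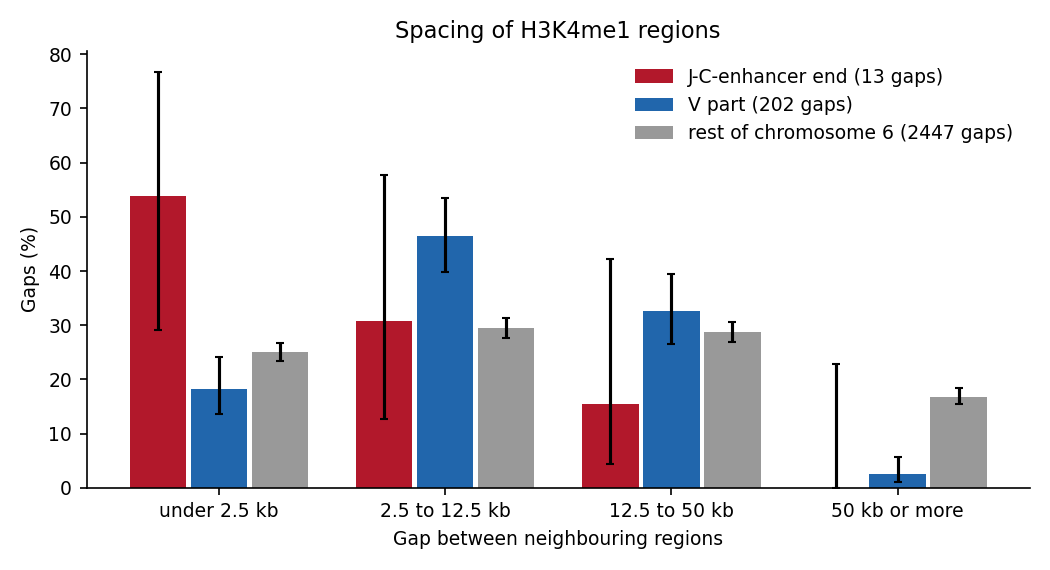
Share of gaps between neighbouring H3K4me1 regions by size, for the J-C-enhancer end (13 gaps), the V part (202) and the rest of chromosome 6 (2447), with 95% Wilson intervals that cover counting error only. The J-C-enhancer end is highest under 2.5 kb with a wide interval (29.1 to 76.8%), the V part is highest from 2.5 to 12.5 kb, and the rest of chromosome 6 is highest at 50 kb or more.

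Every one of the 31 bins of 100 kb in the V part held at least 1 region midpoint, whereas 53.9% of other windows of 100 kb in the genome held none. Of the 814 other windows of 3.1 Mb, 1.11% had no empty bin, among them 3 of the 4 windows with at least as many regions as the V part, and in 4.42% the longest gap was no longer than that of the V part. Bins of the V part held 1 to 11 regions with a median of 7, and 22 of the 31 reached the 90th percentile of other windows, which is 6 regions. The variance of the bin counts was 1.20 times their mean in the V part. Over all other windows of 100 kb in the genome it was 4.36 times, a value that also takes in differences between loci. Within each of the 4 windows of 3.1 Mb with at least as many regions it was 1.60 to 3.21 times. Covered bases per bin ranged from 0.501 to 32.3%, with a median of 14.4%.

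Marking along the V part was highest in the middle and lowest toward the boundary with the J-C-enhancer end. Counted in steps of 500 kb from the other end, the regions numbered 27, 37, 46, 37, 31 and 24, with 1 region in the last 100 kb. With 1 library these steps were compared without a test. The covered share peaked at 22.4% between 68500001 and 69000000 and was 9.78% between 70000001 and 70500000. The 2 bins with the highest covered share, 32.3 and 27.1%, were adjacent (68800001 to 69000000) and held 11 regions each. In the last 200 kb before the J-C-enhancer end there were 3 regions. The V part without these 200 kb was 4.02 times as dense as the rest of chromosome 6 (3.46 to 4.64).

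**Figure D4:**
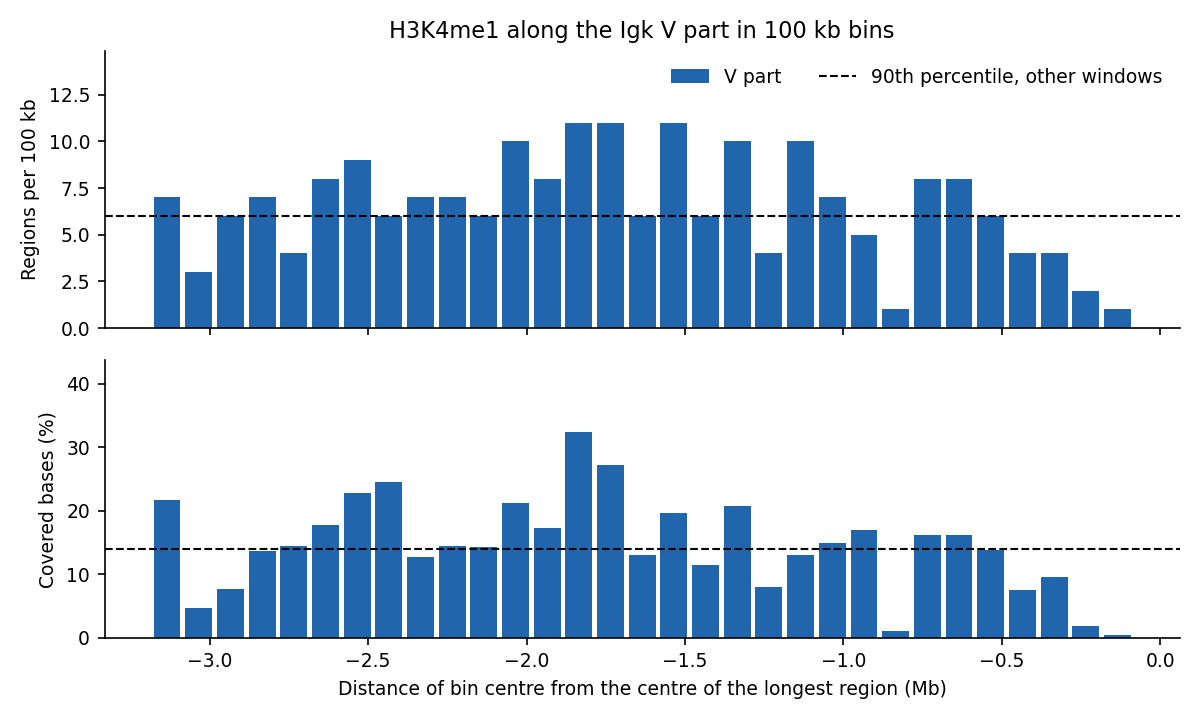
Number of H3K4me1 regions (top) and share of covered bases in percent (bottom) in each of the 31 bins of 100 kb of the V part, against the distance of the bin's centre from the centre of the longest region in Mb. Bars are 1 library without replicates, the dashed lines are the 90th percentiles of other windows (6 regions and 14.0% covered), and counts fall to 1 in the bin next to the J-C-enhancer end.

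The longest stretch without a region lay at the end of the V part next to the J-C-enhancer end. It ran from 70444762 to 70557594 and was 112.8 kb long. After the 501-base region that ends it came another free stretch of 55.3 kb, up to the first region of the J-C-enhancer end. Thus 1 region of the shortest callable length lay within 168.7 kb. The other long free stretches of the V part were 99.5 kb (69809070 to 69908579), 90.7 kb (67565444 to 67656146), 70.9 kb (69256441 to 69327357) and 56.8 kb (67907196 to 67963962). Whether these stretches lack the mark or hold sequence to which tags could not be mapped was not tested.

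Neighbouring regions were also grouped into islands. With gaps of up to 12.5 kb bridged, the window held 78 islands, of which 30 were single regions and 15 had 5 or more. Over the genome 10037 of 20379 islands were single regions and 11.3% had 5 or more. The 15 islands of the window held 105 of its 226 regions (46.5%), beside 36.4% of all regions in the genome. Denser regions form larger islands at a fixed bridge, and grouping apart from density was not tested. The 3 largest by number held 10 regions each. They spanned 47.6 kb (68859274 to 68906913, 44.9% covered), 80.3 kb (69176167 to 69256440, 24.6% covered) and 63.6 kb (69327358 to 69390966, 32.5% covered). The island around the long region, with 9 regions in 57.5 kb, was 72.3% covered, above each of these 3. Some small islands of the V part were covered more densely, such as 2 regions over 87.2% of 6.80 kb (67963963 to 67970764) and 2 regions over 87.2% of 5.08 kb (70189635 to 70194713).

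The V part was set beside the 4 other windows of 3.1 Mb that held at least as many regions. They lay on chromosomes 11, 2, 17 and 4 and held 203 to 228 regions. The covered share was 14.5% in the V part and 16.4 to 19.6% in these windows. The V part held 1 region of at least 10000 bases, and they held 4 to 9. The longest region was 10.1 kb in the V part and 16.5 to 25.6 kb in the 4 windows. The median gap was 8.26 kb in the V part and 4.21 to 5.32 kb in them. Gaps under 2.5 kb made up 18.3% in the V part and 32.2 to 39.0% in them. The variance of the counts per 100 kb over their mean was 1.20 in the V part and 1.60 to 3.21 in them. On these 6 measures the V part lay outside the range of the 4 windows. So did its share of regions of at least 5000 bases (6.90% against 8.87 to 12.1%) and of gaps of 50 kb or more (2.48% against 2.64 to 5.12%). The standard deviation of its gaps over their mean (1.22 against 1.25 to 2.74) and its highest bin count (11 against 15 to 17) were also outside. Several of these measures overlap, such as the median gap and the share of gaps under 2.5 kb. On other measures the V part lay within the range. Its median region length of 1806 bases lay within their range of 1595 to 1907, and its longest gap of 112.8 kb within their 88.1 to 376.4 kb. The V part had 0 empty bins of 100 kb, as had 3 of the 4 windows, and the window on chromosome 17 had 5. These windows were picked by their number of regions, and 4 values allow no test.

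**Figure D5:**
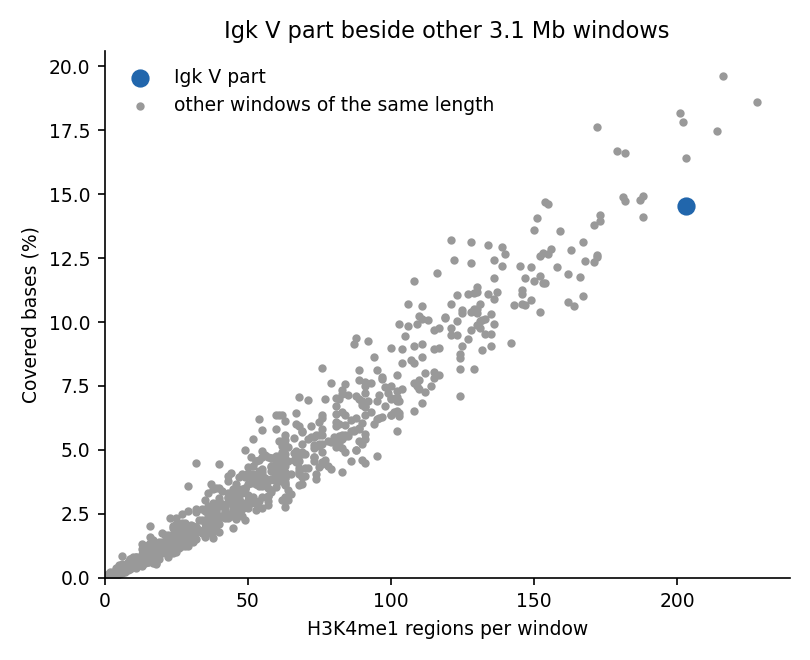
Share of covered bases in percent against the number of H3K4me1 regions, for the Igk V part (blue) and the 814 other windows of the same length (grey, 1 point each). The V part sits at 203 regions and 14.5%, and the 4 windows with at least as many regions all lie above it in covered share.

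The flanks differed from each other. The lower flank held 1 region of 5.16 kb (67481133 to 67486290), 17.3 kb before the first region of the V part. In the upper flank 8 regions covered 22.8% of 150 kb. The longest there was 14.7 kb (70810683 to 70825356), preceded by regions of 6.51 kb (70801595 to 70808100) and 5.48 kb (70795179 to 70800658). The other regions of the upper flank were 1.13 to 1.88 kb long. They lay at 70754779 to 70756419, 70774003 to 70775883, 70780279 to 70782047, 70792786 to 70793919 and 70859643 to 70860794. The upper flank had 53.3 regions per Mb and the V part 65.5, a ratio of 0.814 with an interval of 0.347 to 1.64, which includes 1.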

How the data were processed

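The submitters' processing notes name the tools Bowtie 0.12.9 and HOMER 4.7 and the mm9 build of the mouse genome. Per the file headers, the authors called regions on the H3K4me1 tags with HOMER findPeaks in histone style, using input as control. Peaks of 500 bases were stitched into longer regions, under a setting of 1000 bases for the minimum distance between peaks, and at most 2 tags were counted per position. The deposited columns used here are other than measurements: the start and end of each region. The score that the authors deposited equals 1 in every region and was not used. Input depth is not given in the sources used here.

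Regions overlapping the window were placed in segments by midpoint. Density, covered bases, lengths and gaps were computed, and set beside chromosome 6 and the autosomes outside the window, between the first and last region of each chromosome. Background windows tile each autosome and chromosome X from its first region and leave out the Igk window. They are a description, not a test. Ratios of densities have exact conditional intervals, and medians have order-statistic intervals. Computations were checked on simulated data. The members and comparisons were chosen with earlier results of these data known. Named are all regions of the J-C-enhancer end and the flanks, and of the V part the 10 longest regions, the first and last, and the 5 longest free stretches. No mm9 sequence or annotation was used. Alternatives covered region length, joining, covered bases, overlap, the boundary, windows and bins. Python 3.11.15, numpy 2.4.6, pandas 2.3.3, scipy 1.17.1 and matplotlib 3.10.9 were used.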

Additional observations from a re-analysis of the deposited data

How the results depend on the processing

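Of 29 alternative values, 22 stayed within the counting interval (or 1.5 times the count) of the value reported. This tally does not measure stability. Counting by any overlap, or by midpoints in the window, gave the reported values again. Bins of 200 kb could not be empty where no bin of 100 kb was. The interval for the ratio of the J-C-enhancer end to the V part was wide enough to hold every alternative run. The higher density of the V part than of the rest of chromosome 6 held under every alternative run, at 3.36 to 4.29 times. The ratio of the J-C-enhancer end to the V part had an interval that included 1, and ranged from 0.871 with regions under 2.5 kb apart joined to 2.22 by covered bases. Moving the boundary by 50 kb gave 1.13 (lower) and 1.52 (higher). The median spacing depended on its definition, by construction: between midpoints it was 5.77 kb at the J-C-enhancer end and 10.6 kb in the V part, and after joining it was 4.33 kb at the J-C-enhancer end and 10.9 kb in the V part. Other windows at least as dense as the J-C-enhancer end made up 2.60% by number, 1.44% by covered bases and 0.393% by the longest region. Other windows at most as dense as the V part made up 98.2% by covered bases. Region-free stretches of the V part numbered 1 at 100 kb or more and 5 at 50 kb or more. Comparing by the longest region, leaving out the last 200 kb of the V part and asking for windows at least as dense as the V part were chosen after seeing the data. A stricter score threshold was not run because the score is constant. No paired analysis was possible because each group has 1 library and the result comes from no test. Regions near the calling threshold could not be told from strong ones.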

Other observations

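The deposited list is not in genome order. Place in the list and region length had a Spearman rank correlation of -0.97 over the 48130 regions, which share 1 library. The file does not say by which value the list is ordered. The region of 23.2 kb at the J-C-enhancer end stood at place 119, and at place 69 by length. Whether the order among regions of like length is more than arbitrary was not tested, and its direction differed between length classes. The 22 regions of 501 bases in the V part had a median place of 42908.5, against 44665 for the 6845 such regions outside the window, and 72.7% of them stood before that median. For lengths of 2000 to 4999 bases the median place was 9215 for the 80 regions of the V part and 11226.5 for the 13674 outside the window, at median lengths of 2815 and 2825 bases. For 1000 to 1999 bases it was 25438 in the V part and 25235.5 outside the window, so the V part stood slightly later there. For 502 to 999 bases it was 36348.5 in the V part and 36949 outside the window. For 5000 to 9999 bases it was 3605 in the V part and 2704 outside the window, at median lengths of 5428 bases in the V part and 6500 outside it. Of these regions of the V part, 15.4% stood before the outside median.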
